A study of Mus musculus with 18 samples.

Results

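The kinesin genes are the family of microtubule motors, and 41 of the 54281 gene rows of the count table belong to it. A row was taken where its gene identifier maps in GENCODE mouse release M21 to a protein-coding symbol of the form Kif with a number, or Kifc with a number. Kif1bp, the gene of a kinesin-binding protein, was left out, as were kinesins under other symbols (Cenpe and Kifc5b). By textbook role, 12 members serve mitosis and cytokinesis (Kif2c, Kif4, Kif11, Kif14, Kif15, Kif18a, Kif18b, Kif20a, Kif20b, Kif22, Kif23 and Kifc1). Another 17 serve axonal and cargo transport (Kif1a, Kif1b, Kif1c, Kif3a, Kif3b, Kif3c, Kif5a, Kif5b, Kif5c, Kif13a, Kif13b, Kif16b, Kif17, Kif21a, Kif21b, Kifc2 and Kifc3). Then come 6 members of cilia and Hedgehog signalling (Kif6, Kif7, Kif9, Kif19a, Kif24 and Kif27) and 6 others (Kif2a, Kif2b, Kif12, Kif26a, Kif26b and Kif28).

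The study asked how the cortical transcriptome develops in a mouse model of microcephaly. Bulk RNA sequencing covered whole cerebral cortex of male C57BL/6J mice at E17.5 (embryonic), P4 (early postnatal) and the 2 stages labelled A6w and A18w, called adult here. At each stage there were 2 libraries labelled Mcph1KO (Mcph1 knockout) and 2 wild-type (WT) libraries, 16 in all. Wild-type mouse embryonic stem cells of the line R1 (mESC, 2 libraries) were measured beside them, so 9 groups of 2 libraries were available. The labels do not describe the Mcph1 allele, and they do not say whether the libraries of a group came from separate animals or cultures, so every p-value below measures only the spread between libraries.

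Kinesins hydrolyse ATP to walk along microtubules or, in some families, to take microtubule ends apart. Mitotic kinesins push spindle poles apart, move chromosomes and build the midzone at which a dividing cell is cut, and a cell makes most of them only around division. Neurons leave the cell cycle for good, and rely on transport kinesins to carry vesicle precursors, mitochondria, receptors and RNA over the length of axons and dendrites. In the cortex neurons are born before birth from radial glia and intermediate progenitors, while glial cells go on dividing after birth.

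The libraries held between 23531045 and 32041849 counts each, and expression is given as CPM, the count relative to the library total after TMM scaling, or as CPM per kb of exon where genes are compared with each other. The libraries labelled Mcph1KO showed no lower level of Mcph1 itself, at 12.2 and 13.3 CPM (E17.5), 14.7 and 13.4 (P4), 16.2 and 16.7 (A6w) and 13.9 and 11.7 (A18w). In WT libraries Mcph1 stood at 12.5 and 10.1 CPM (E17.5), 12.3 and 10.7 (P4), 9.66 and 9.02 (A6w) and 8.36 and 9.72 (A18w). The averaged log2 difference was 0.44 ± 0.09 (standard error, SE) with an adjusted p of 0.368 in edgeR, so a gene-level count does not show the knockout and genotypes are given as labelled. Neuron markers summed to 7821 to 8885 CPM in adult libraries and 3385 to 3608 CPM in E17.5 libraries, and pluripotency markers to 7035 and 6947 CPM in mESC against 111 and 104 CPM in E17.5 WT cortex.

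Of the 41 members, 38 passed the filter on low counts in cortex. Kif2b and Kif12 had at most 2 counts in any of the 18 libraries, and Kif28 at most 5 counts in a cortex library, so none of these 3 was tested there. Kifc1 has a near-identical copy, Kifc5b, with 24 to 301 counts in cortex libraries, so reads of this pair may have been split and Kifc1 values are uncertain. The sources do not state whether counting used strand. Kif20a, Kif18a, Kif4, Kif7, Kif2a and Kifc2 each overlap a protein-coding gene of the opposite strand (Cdc23, Mettl15, Pdzd11, Ticrr, Dimt1 and Cyhr1), and Kif17 overlaps Sh2d5 on its own strand. For these members a part of the count could belong to the neighbour.

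**Figure D1:**
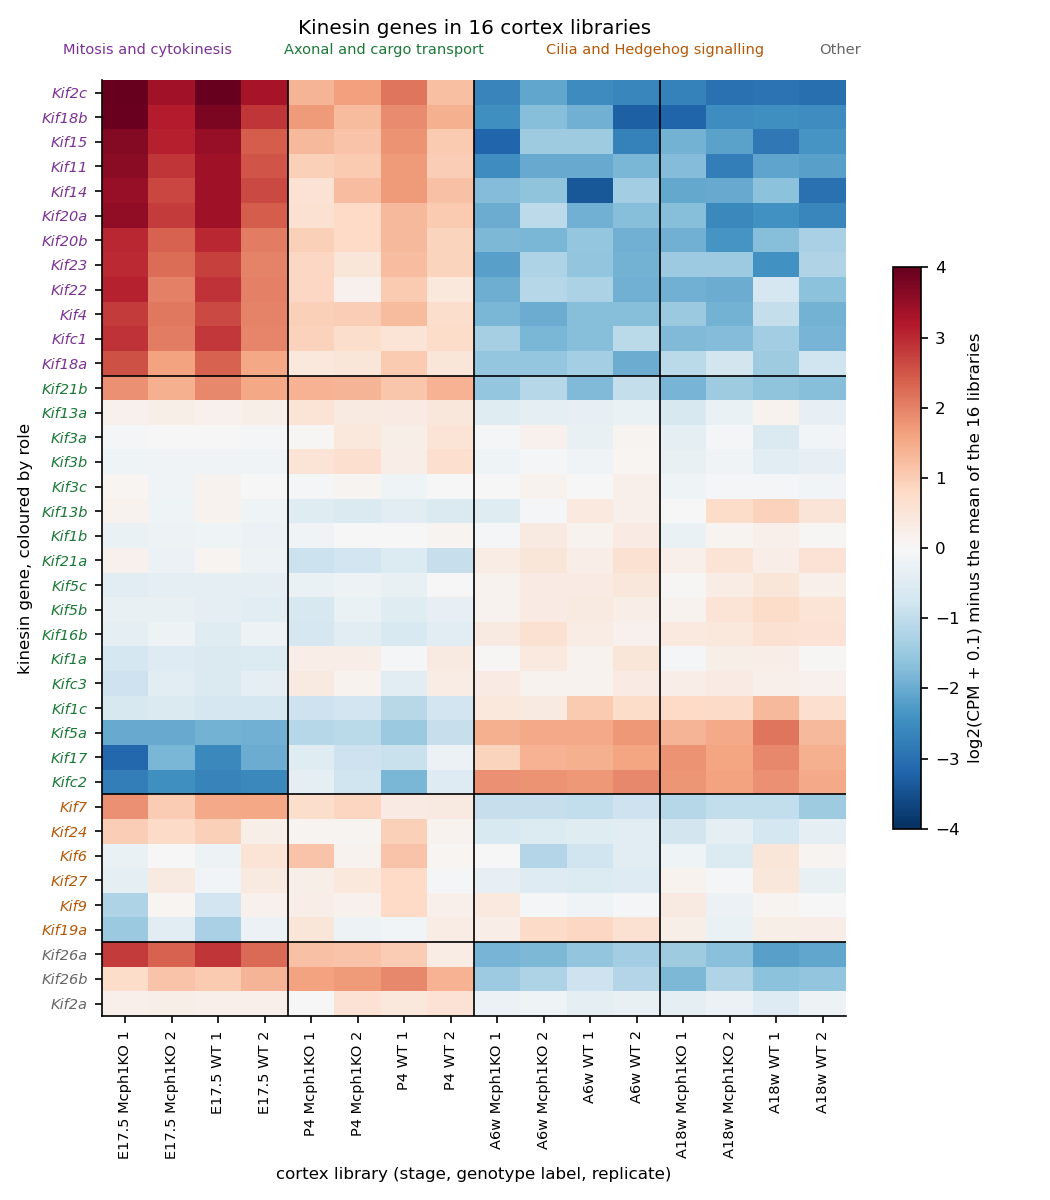
Heat map of the 38 tested kinesin genes (vertical axis, coloured by role) in the 16 cortex libraries (horizontal axis, by stage, with Mcph1KO before WT). Colour gives log2(CPM + 0.1) minus the gene's mean over the libraries, from blue (lower) to red (higher). The mitotic block is red at E17.5, paler at P4 and blue in the adult stages, while Kif5a, Kif17 and Kifc2 run the other way.

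All 12 mitotic motors fell at both steps of cortical development, first between E17.5 and P4 and again between P4 and A6w. Their summed level was 399 and 230 CPM in Mcph1KO and 354 and 193 CPM in WT libraries at E17.5. At P4 it was 75.4 and 71.6 CPM in Mcph1KO and 105 and 72.2 CPM in WT libraries. In the 8 adult libraries it was 8.67 to 12.1 CPM. Markers of radial glia and intermediate progenitors mostly fell beside them. The 5 oligodendrocyte precursor markers did not, with 5 of 5 higher at P4 (median log2 change 1.28), and 1 higher and 2 lower at A6w. The 4 intermediate progenitor markers (Eomes, Neurog2, Insm1 and Btg2) summed to 314 to 543 CPM at E17.5, 32.1 to 76.6 CPM at P4 and 20.2 to 51.8 CPM at A6w, with 4 of 4 lower at P4 and 3 of 4 lower at A6w. The 7 radial glia markers summed to 1242 to 1512 CPM at E17.5, 969 to 1139 CPM at P4 and 669 to 727 CPM at A6w, with 4 lower and 1 higher at P4, and 6 lower and 1 higher at A6w. Of all genes tested, 17.9% were lower and 18.9% higher at P4, and 27.8% lower and 27.3% higher at A6w. The part of the progenitor markers in the fall of the motors was not tested. In bulk tissue, fewer cells of a type and less RNA per cell cannot be told apart.

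The promoters of these co-moving genes are shown for the letters they share. The reference table of RefSeq promoters (GRCm38.p6) matched 32 of the 41 members, 11 of them mitotic. A cell cycle homology region, a short element known from promoters of genes expressed in G2 and M phase, was searched as TTTGAA or TTCGAA on both strands, and the NF-Y box as CCAAT on both strands. Windows of 100 bases follow, from 70 bases before the annotated start onward, 5′ to 3′ on the gene's strand, with matches of either motif in capitals (TTCAAA and ATTGG are the same letters read from the other strand). Kif18a is shown as the mitotic promoter without either motif. Positions skip 0, so the start base is the first positive position and negative positions lie before it.
Kif11 (chr19:37376312-37376411, plus strand): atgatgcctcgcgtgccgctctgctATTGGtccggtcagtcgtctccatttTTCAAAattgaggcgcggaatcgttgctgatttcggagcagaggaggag
Kif22 (chr7:127042391-127042490, minus strand): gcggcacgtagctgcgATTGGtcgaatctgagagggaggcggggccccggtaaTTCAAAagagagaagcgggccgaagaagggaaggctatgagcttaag
Kif18b (chr11:102925095-102925194, minus strand): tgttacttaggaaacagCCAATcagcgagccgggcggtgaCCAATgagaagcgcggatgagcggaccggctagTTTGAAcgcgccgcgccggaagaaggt
Kif23 (chr9:61946770-61946869, minus strand): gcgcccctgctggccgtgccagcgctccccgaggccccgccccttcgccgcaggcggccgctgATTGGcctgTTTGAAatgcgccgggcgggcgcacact
Kifc1 (chr17:33890604-33890703, minus strand): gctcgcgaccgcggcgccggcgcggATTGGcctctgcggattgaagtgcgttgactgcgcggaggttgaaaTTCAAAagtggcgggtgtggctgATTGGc
Kif4 (chrX:100625995-100626094, plus strand): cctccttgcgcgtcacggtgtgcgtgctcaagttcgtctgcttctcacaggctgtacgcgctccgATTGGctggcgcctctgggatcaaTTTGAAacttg
Kif15 (chr9:122951011-122951110, plus strand): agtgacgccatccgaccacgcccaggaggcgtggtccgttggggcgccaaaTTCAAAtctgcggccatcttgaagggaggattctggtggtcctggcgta
Kif20b (chr19:34922288-34922387, plus strand): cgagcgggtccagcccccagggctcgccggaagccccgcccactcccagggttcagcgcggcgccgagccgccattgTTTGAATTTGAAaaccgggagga
Kif18a (chr2:109280668-109280767, plus strand): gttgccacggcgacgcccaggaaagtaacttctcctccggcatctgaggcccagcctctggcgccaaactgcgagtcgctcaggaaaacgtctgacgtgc
Of the transport motors, none of which fell at both steps, Kif5c, Kif21a and Kif3c are shown as windows that hold neither motif. Other transport windows hold a match: the homology region in Kif1a and a CCAAT box in Kif3a and Kif3b. The mitotic motors Kif14 and Kif2c have matches only outside the window and are not shown.
Kif5c (chr2:49619216-49619315, plus strand): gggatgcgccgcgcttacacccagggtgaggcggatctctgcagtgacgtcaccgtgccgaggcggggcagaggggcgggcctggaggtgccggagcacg
Kif21a (chr15:91049922-91050021, minus strand): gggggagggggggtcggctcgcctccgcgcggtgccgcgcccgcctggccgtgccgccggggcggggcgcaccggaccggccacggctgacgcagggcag
Kif3c (chr12:3365062-3365161, plus strand): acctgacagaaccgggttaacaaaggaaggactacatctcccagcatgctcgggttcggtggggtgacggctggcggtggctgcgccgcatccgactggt

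The homology region stood in the 100-base window of 8 of the 11 mitotic promoters (72.7%), of 1 of 11 transport promoters (Kif1a, 9.09%) and of 6.32% of the 27025 genes in the promoter table. It also stood in the window of 1 of 5 promoters of cilia motors (Kif24) and 1 of 5 of the other members (Kif26b). Both of these promoters also held a CCAAT box. Among the mitotic promoters the homology region began at position -19 in Kif11 and Kif15 and at -17 in Kif22. In Kifc1 it began at 2, in Kif23 at 3, in Kif18b at 4, in Kif20b at 8 and again at 14, and in Kif4 at 20. Over the whole 300 bases of the table, 10 of 11 mitotic promoters (90.9%) held it, against 21.7% of all genes. A CCAAT box lay in 7 of 11 mitotic promoters (63.6%), in 3 of 11 transport promoters (27.3%) and in 41.1% of all genes. The Kif18a promoter held neither motif. A match is a description of letters and not evidence of binding.

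Between E17.5 and P4 the mitotic motors fell to between a 2.71-fold (Kif4) and a 4.79-fold (Kif2c) lower mean, and the P4 libraries did not overlap the E17.5 libraries for any of the 12 (18.1% of all genes lay lower without overlap). Over all 19199 genes tested, 36.8% were called at this step (edgeR, adjusted p under 0.05), with 18.9% of all genes tested higher and 17.9% lower. Among all 38 members 8 were higher and 16 lower. The mitotic median was a log2 change of -1.91, against 0.03 over all genes tested.

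Kif11 is the bipolar motor that pushes spindle poles apart. At E17.5 it had 93.0 and 55.3 CPM in Mcph1KO and 80.1 and 43.7 CPM in WT libraries. At P4 it had 14.8 and 15.7 CPM in Mcph1KO and 24.8 and 14.9 CPM in WT libraries. The adult values were 1.26 and 1.79 (A6w Mcph1KO), 1.79 and 2.04 (A6w WT), 2.20 and 1.02 (A18w Mcph1KO) and 1.64 and 1.58 CPM (A18w WT). No library of a later stage reached the lowest of the stage before it until the adult stages, which overlapped each other. The log2 change was -1.96 ± 0.26 (SE) at P4 against E17.5 (adjusted p = 0.000149, edgeR) and -3.35 ± 0.29 at A6w against P4. Kif15, which can stand in for Kif11 at the spindle, had 35.4 and 23.7 CPM in Mcph1KO and 31.1 and 14.9 CPM in WT libraries at E17.5, and its log2 change to P4 was -1.90 ± 0.36.

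Kif23, the motor of the centralspindlin complex that cytokinesis needs, had 29.8 and 17.48 CPM in Mcph1KO and 25.2 and 14.8 CPM in WT libraries at E17.5. Its P4 values were 6.63 and 5.16 CPM in Mcph1KO and 8.83 and 6.87 CPM in WT libraries, and its 8 adult values lay between 0.611 and 1.54 CPM. Its fall was 3.20-fold to P4 and a further 6.33-fold to A6w. Kif20a, which brings the chromosomal passenger complex to the midzone, had 38.6 and 22.9 CPM in Mcph1KO and 34.6 and 17.3 CPM in WT libraries at E17.5, 4.89 to 8.02 CPM at P4 and 0.734 to 1.49 CPM at A6w. The log2 change was -2.18 ± 0.28 to P4 (adjusted p = 0.000132, edgeR) and -2.68 ± 0.31 to A6w. Both remaining members of cytokinesis carry a link to brain size as background: Kif14, mutated in human microcephaly, and Kif20b, whose loss makes mice microcephalic. Kif14 fell 3.81-fold to P4 (2.11 to 4.79 CPM at P4, against 16.5 and 9.38 CPM in Mcph1KO and 15.5 and 9.23 CPM in WT libraries at E17.5), and Kif20b fell 3.23-fold.

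Kif2c takes microtubules apart at centromeres, and with all libraries it had the largest fall of the 12 at both steps. The rank at A6w rests on 4 to 6 counts per library, and without both A6w libraries numbered 1 the log2 change was -4.53 for Kif2c and -5.10 for Kif18b. At E17.5 it had 30.7 and 15.5 CPM in Mcph1KO and 27.1 and 14.6 CPM in WT libraries, and at P4 3.79 and 4.65 CPM in Mcph1KO and 6.61 and 3.36 CPM in WT libraries. In adult libraries it had 2 to 6 counts each. The log2 change was -2.26 ± 0.29 to P4 (adjusted p = 0.000133, edgeR) and -4.69 ± 0.39 to A6w (adjusted p = 5.0e-07). Of the chromokinesins, which bind chromosome arms, Kif22 fell 3.86-fold to P4, with 5.05 to 9.39 CPM at P4 against 39.1 and 18.7 CPM in Mcph1KO and 34.0 and 18.7 CPM in WT libraries at E17.5. Kif4 fell less, with 33.3 and 20.7 CPM in Mcph1KO and 29.8 and 19.0 CPM in WT libraries at E17.5, 7.83 to 11.47 CPM at P4 and 1.11 to 1.38 CPM at A6w. Kif18b, which shortens astral microtubules, fell 3.82-fold to P4 and had 1 to 7 counts in each adult library. Kif18a, which damps chromosome movement before anaphase, fell 2.78-fold to P4. Kifc1, a minus-end motor that focuses spindle poles, had 5.49 to 7.27 CPM at P4 against 28.7 and 15.9 CPM in Mcph1KO and 27.6 and 14.8 CPM in WT libraries at E17.5, a 3.44-fold fall by its uncertain counts.

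**Figure D2:**
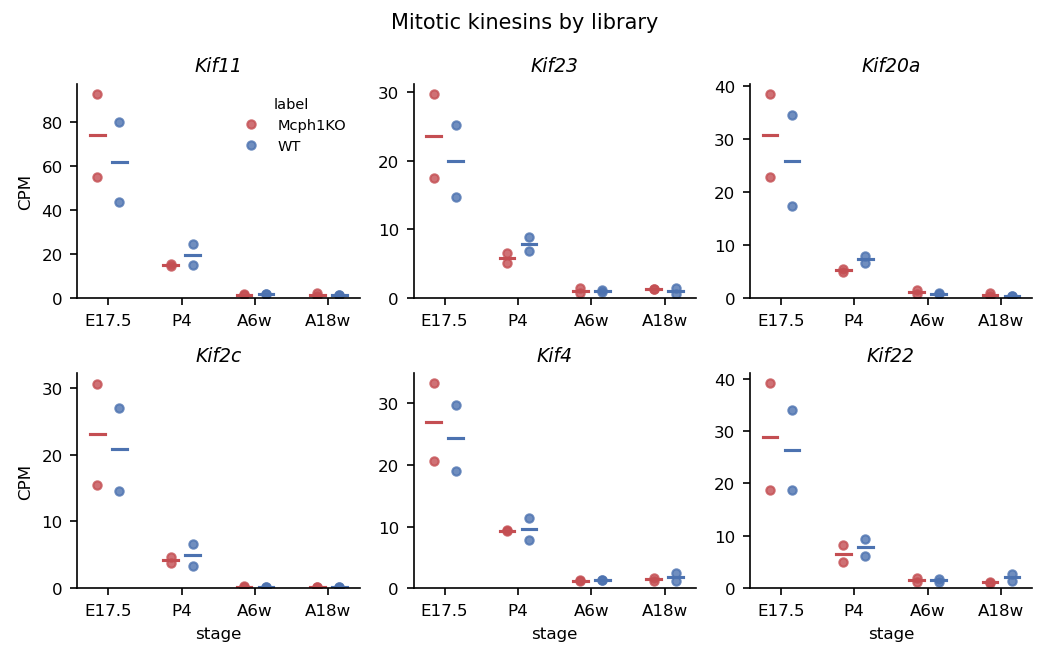
CPM (vertical axes, from 0, a scale for each panel) of 6 mitotic kinesins at the 4 cortex stages (horizontal axes). Red points are the 2 libraries labelled Mcph1KO, blue points the 2 WT libraries, and the short lines their means. Each gene stands highest at E17.5, where the 2 points of a group lie apart, and near 0 in the adult stages.

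The 2 E17.5 libraries of each label differed in these genes. The ratio of the library numbered 1 to the library numbered 2 was 1.49 to 2.10 in Mcph1KO (median 1.73) and 1.57 to 2.09 in WT (median 1.85) over the 12 mitotic motors. Over the 17 transport motors the ratio was 0.374 to 1.34 in Mcph1KO (median 0.958) and 0.642 to 1.32 in WT (median 1.02). The intermediate progenitor markers moved with the mitotic motors, at 543 CPM in the Mcph1KO library numbered 1 and 314 CPM in that numbered 2. In the WT libraries numbered 1 and 2 they stood at 498 and 392 CPM. Their part in the difference was not tested. With both libraries numbered 1 left out, 11 of the 12 mitotic motors were still lower at P4 and Kif14 was no longer called, Kif11 changed by -1.51, Kif23 by -1.25 and Kif2c by -1.72 on the log2 scale.

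At A6w against P4, the median log2 change of the 12 mitotic motors was -2.92, against -0.06 over all genes tested. Of all genes 55.1% were called at this step, with 27.3% of all genes tested higher and 27.8% lower. Among the 38 members 9 were higher and 22 lower. This step shares its P4 libraries with the step before, so the pair of steps is not independent. The mitotic falls ran from 4.75-fold (Kif22) to 25.9-fold (Kif2c), without overlap for any of the 12, as for 25.6% of all genes. The largest rest on few adult counts: without the A6w WT library numbered 2 the log2 change of Kif14 was -4.68, against -3.40 with it. Kif15 changed by -4.25 without the A6w Mcph1KO library numbered 2, against -3.56 with it. Kif18b changed by -5.33 without the A6w WT library numbered 1 and by -5.10 without both A6w libraries numbered 1, against -4.45 with them.

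The 20 partner genes of mitosis fixed as a list (among them Aurka, Aurkb, Plk1, Tpx2, Prc1 and Cenpe) gave 19 lower and 1 higher at P4 against E17.5, and 17 lower and 2 higher at A6w against P4. Of all genes tested, 17.9% were lower and 18.9% higher at the first step, and 27.8% lower and 27.3% higher at the second. Cenpe, a kinesin of kinetochores under another symbol, fell by 1.79 and then by 2.75 on the log2 scale. The genes called higher were Cit, the citron kinase that works with Kif14 in cytokinesis, and, at A6w only, Anln, an actin-binding protein of the cleavage furrow. At A6w 1 other partner gene was not called (adjusted p = 0.227, edgeR). Cit averaged 36.4 CPM at P4 against 24.3 CPM at E17.5, and 148 CPM at A6w against 36.4 CPM at P4 (log2 changes 0.58 ± 0.19 and 2.03 ± 0.20). Anln fell by 1.60 to P4 and was then 1.54 ± 0.23 higher at A6w (log2), at 20.7 CPM against 7.10 CPM. As background, both are also expressed in non-dividing brain cells, Cit in neurons and Anln in oligodendrocytes.

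The transport motors went several ways. Between E17.5 and P4, 6 of the 17 rose (Kifc2, Kif17, Kif5a, Kif1a, Kif3b and Kifc3), 2 fell (Kif21a and Kif13b) and 9 did not pass the test, beside 18.9% of all genes higher and 17.9% lower. Between P4 and A6w, 9 rose (Kif5a, Kifc2, Kif17, Kif1c, Kif21a, Kif16b, Kif5b, Kif13b and Kif5c), 3 fell (Kif21b, Kif13a and Kif3b) and 5 did not pass, beside 27.3% of all genes higher and 27.8% lower. Their median log2 change was 0.22 at the first step and 0.50 at the second. The summed level of the 17 was 4199 to 4562 CPM at E17.5, 4589 to 5727 CPM at P4 and 7415 to 10760 CPM in adult libraries. Kif5a, Kifc2 and Kif17 rose at both steps, and no member of this class fell at both.

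Kif5a, Kif5b and Kif5c are the 3 heavy chains of conventional kinesin, of which Kif5b is made in most cells and the others mainly in neurons. Kif5a had 286 and 287 CPM in Mcph1KO and 312 and 306 CPM in WT libraries at E17.5, and 525 and 547 CPM in Mcph1KO and 419 and 608 CPM in WT libraries at P4. At A6w it had 3107 and 3321 CPM in Mcph1KO and 3313 and 3874 CPM in WT libraries, and at A18w 2973 and 3358 CPM in Mcph1KO and 5136 and 2866 CPM in WT libraries. The stages did not overlap up to A6w, and the 2 adult stages did. Kif5a was 1.76-fold higher at P4 than at E17.5 (log2 change 0.82 ± 0.17, adjusted p = 0.00236, edgeR) and 6.48-fold higher at A6w than at P4 (2.70 ± 0.18, adjusted p = 7.4e-08).

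Kif5c changed less. It had 668 and 719 CPM in Mcph1KO and 697 and 705 CPM in WT libraries at E17.5, 742 to 932 CPM at P4, and 1020 and 1161 CPM in Mcph1KO and 1159 and 1265 CPM in WT libraries at A6w. Its log2 change of 0.22 ± 0.11 to P4 did not pass the test (adjusted p = 0.146, edgeR), and it was 1.42-fold higher at A6w than at P4. Kif5b had 191 to 212 CPM at E17.5, 165 to 215 CPM at P4 and 286 to 333 CPM at A6w, 1.63-fold higher than at P4.

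As a share of the summed CPM per kb of these 3 genes, Kif5c held 58.1% and 59.8% in Mcph1KO and 58.5% and 59.3% in WT libraries at E17.5. At P4 Kif5c still led, with 52.9% and 51.7% in Mcph1KO and 55.5% and 53.6% in WT libraries, and Kif5a held 32.0% to 37.0%. In the 8 adult libraries Kif5a held 67.8% to 75.8% and Kif5c 18.6% to 24.4%. Kif5b held 14.4% to 16.5% at E17.5, 10.2% to 12.5% at P4 and 5.09% to 7.78% in adult cortex, although its CPM were higher there. In mESC Kif5b held 87.7% and 88.3%. The A18w WT library numbered 1, with the highest Kif5a share (75.8%) and level, also had the highest sum of oligodendrocyte markers (9005 CPM, against 3955 to 6882 CPM in the other 7 adult libraries) and of striatal markers (1297 CPM, against 89.7 to 996 CPM). Their part in its Kif5a level was not tested.

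**Figure D3:**
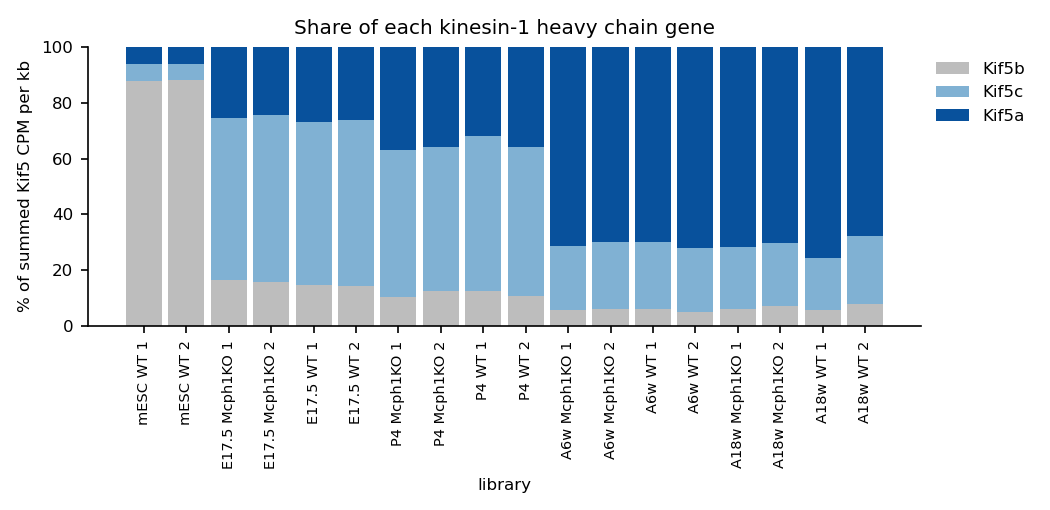
Share of Kif5a (dark blue), Kif5c (light blue) and Kif5b (grey) in their summed CPM per kb (vertical axis, percent) in each of the 18 libraries (horizontal axis). The mESC bars are 87.7% and 88.3% Kif5b, Kif5c holds 58.1% to 59.8% at E17.5, and Kif5a holds 67.8% to 75.8% in the adult libraries.

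Kif1a carries synaptic vesicle precursors along axons. It had 650 and 735 CPM in Mcph1KO and 711 and 721 CPM in WT libraries at E17.5, and 1257 and 1259 CPM in Mcph1KO and 1000 and 1363 CPM in WT libraries at P4. From there it showed no further called step, with 1085 to 1481 CPM at A6w. Its log2 change was 0.79 ± 0.14 to P4 (adjusted p = 0.000783, edgeR) and 0.06 ± 0.14 to A6w (adjusted p = 0.705). Kif1b, which carries mitochondria and synaptic vesicle precursors, had 702 to 742 CPM at E17.5, 755 to 897 CPM at P4 and 805 to 1065 CPM at A6w, and neither step passed (log2 changes 0.21 ± 0.12 and 0.20 ± 0.12).

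Kif1c, a motor of Golgi and secretory vesicles, rose late. It had 44.2 to 47.9 CPM at E17.5 and 33.1 to 42.6 CPM at P4. At A6w it had 96.3 and 92.1 CPM in Mcph1KO and 150 and 119 CPM in WT libraries, 2.85-fold above P4 (log2 change 1.51 ± 0.14). At A18w it had 126 and 123 CPM in Mcph1KO and 179 and 116 CPM in WT libraries.

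The kinesin-2 heavy chains form heterotrimers in which Kif3a pairs with Kif3b or Kif3c, in cilia as well as in axons. Kif3b stood at a peak at P4, with 165 and 176 CPM in Mcph1KO and 134 and 177 CPM in WT libraries, against 99.6 to 102 CPM at E17.5. At A6w it had 98.3 to 117 CPM, so the rise of 0.69 ± 0.11 was followed by a fall of 0.63 ± 0.11 (log2; adjusted p = 0.000443 and 0.000276, edgeR). Kif3a had 120 to 128 CPM at E17.5, 130 to 184 CPM at P4 and 103 to 140 CPM at A6w, and its log2 changes of 0.34 ± 0.15 and -0.34 ± 0.15 did not pass the test. Kif3c was level at 274 to 330 CPM at E17.5, 265 to 324 CPM at P4 and 305 to 347 CPM at A6w, and did not pass at either step. Per kb, the ratio of Kif3b to Kif3c was 0.402 to 0.485 at E17.5, 0.662 to 0.758 at P4 and 0.367 to 0.452 in adult libraries. Kifap3, the subunit that joins these heavy chains to cargo, averaged 394 CPM at P4 against 243 CPM at E17.5 (log2 change 0.70 ± 0.12).

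Kif17, a motor of dendrites that carries NMDA receptor subunits, rose at both steps. At E17.5 it had 0.913 and 2.45 CPM in Mcph1KO and 1.41 and 2.19 CPM in WT libraries, and at P4 6.40 and 5.01 CPM in Mcph1KO and 4.75 and 7.55 CPM in WT libraries. Its A6w values were 16.5 and 23.4 CPM in Mcph1KO and 24.3 and 26.7 CPM in WT libraries. The rise was 3.44-fold to P4 and 3.80-fold to A6w.

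Kif21a and Kif21b, motors of the same subfamily that also restrain microtubule growth, moved in opposite directions after P4. Kif21b had 918 and 686 CPM in Mcph1KO and 977 and 740 CPM in WT libraries at E17.5, and 673 and 662 CPM in Mcph1KO and 549 and 670 CPM in WT libraries at P4. At A6w it had 86.7 and 116 CPM in Mcph1KO and 75.7 and 132 CPM in WT libraries, 6.22-fold below P4 (log2 change -2.64 ± 0.20, adjusted p = 2.2e-07, edgeR). Kif21a had 188 and 144 CPM in Mcph1KO and 182 and 145 CPM in WT libraries at E17.5, and 89.1 to 116 CPM at P4. The A6w libraries held 205 and 233 CPM in Mcph1KO and 202 and 255 CPM in WT libraries, 2.27-fold above P4. The ratio of Kif21a to Kif21b per kb was 0.351 to 0.394 at E17.5, 0.250 to 0.397 at P4 and 3.63 to 5.91 in the 8 adult libraries, with no overlap between young and adult cortex.

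Kifc2 and Kifc3 walk to the minus end, and Kifc2 is known from dendrites. Kifc2 had 22.9 and 28.2 CPM in Mcph1KO and 24.2 and 26.0 CPM in WT libraries at E17.5, and 120 and 90.3 CPM in Mcph1KO and 43.5 and 108 CPM in WT libraries at P4. In A6w cortex the level reached 547 and 535 CPM in Mcph1KO and 517 and 594 CPM in WT libraries. The 3 stages did not overlap, with a 3.53-fold rise to P4 and a 6.14-fold rise to A6w (log2 changes 1.82 ± 0.23 and 2.62 ± 0.23, adjusted p = 0.000106 and 8.7e-07, edgeR). Kifc3 rose 1.58-fold to P4, with overlapping libraries, and the call was lost when both E17.5 libraries numbered 1 were left out.

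The endosome motors Kif13a, Kif13b and Kif16b stood lower. Kif13a, which moves recycling endosomes, had 26.9 to 31.2 CPM at A6w against 47.0 to 55.2 CPM at P4, a log2 change of -0.79 ± 0.12. Kif16b, which moves early endosomes, had 13.2 to 17.8 CPM at A6w against 7.40 to 8.79 CPM at P4, a log2 change of 0.89 ± 0.14. Kif13b had 28.7 to 35.1 CPM at E17.5, 21.5 to 23.2 CPM at P4 and 22.9 to 42.0 CPM at A6w. Its fall to P4 (-0.52 ± 0.17) was lost when either E17.5 library numbered 1, or 3 of the P4 libraries in turn, were left out, and its rise to A6w (0.54 ± 0.17) without the A6w Mcph1KO library numbered 2 or with total counts as the only scaling.

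**Figure D4:**
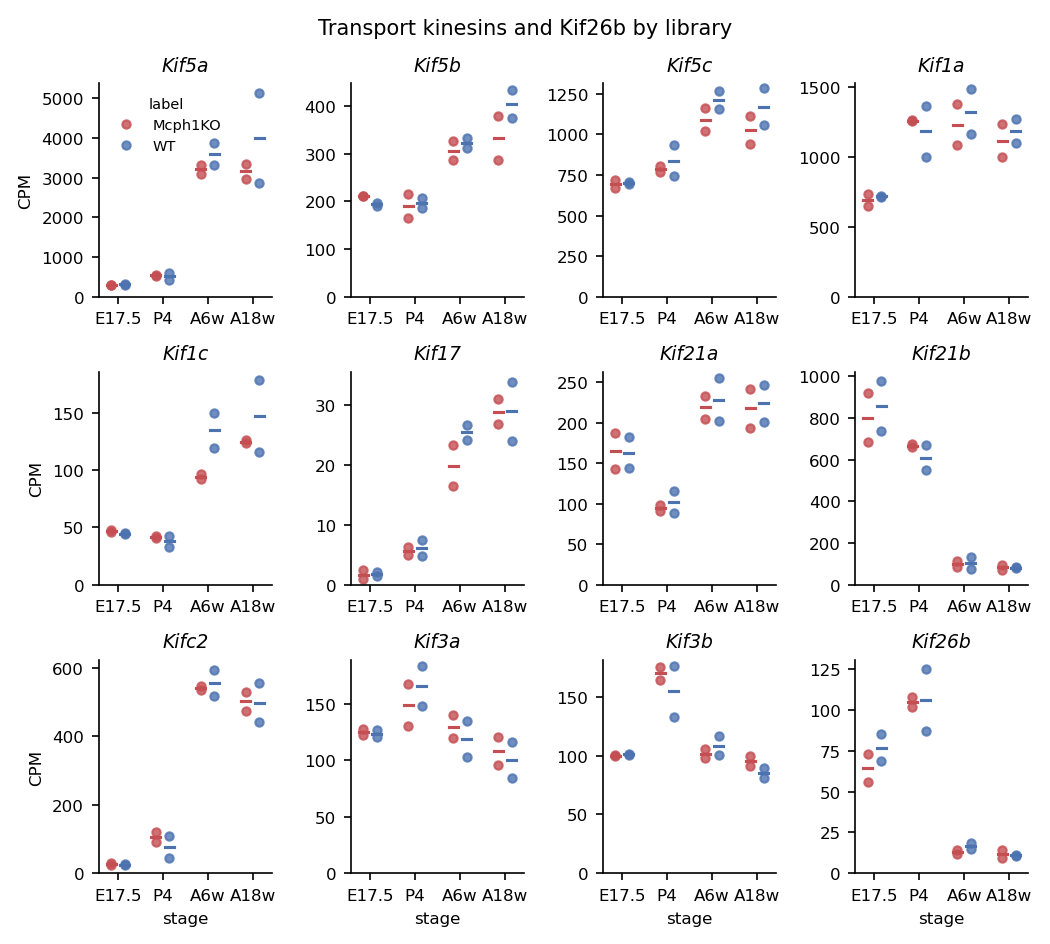
CPM (vertical axes, from 0, a scale for each panel) of 11 transport kinesins and Kif26b at the 4 cortex stages (horizontal axes), with Mcph1KO libraries in red left of WT libraries in blue and short lines for the means of 2 libraries. Kif5a, Kif17 and Kifc2 climb to the adult stages, Kif21b and Kif26b drop after P4, and Kif3b is highest at P4.

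Per kb of exon, the order of levels changed with stage. In E17.5 WT cortex Kif5c led with 98.2 ± 0.80 CPM per kb (SD, n = 2), before Kif1a with 76.7 ± 0.74 and Kif21b with 70.4 ± 13.8, and the last pair did not differ beyond their spread. Next came Kif5a (44.2 ± 0.66), Kif3c (43.1 ± 2.15) and Kif1b (41.3 ± 1.29), each within the spread of its neighbour in this order, while Kif5a and Kif1b lay further apart than their SDs. At A6w in WT cortex Kif5a led with 514 ± 56.8 CPM per kb, before Kif5c with 170 ± 10.4, Kif1a with 142 ± 24.1 and Kifc2 with 141 ± 14.0, and of these last 3 neither Kif5c and Kif1a nor Kif1a and Kifc2 differed beyond their spread. In mESC the order began with Kif20a (71.8 ± 5.35), Kifc1 (42.6 ± 7.81) and Kif5b (39.7 ± 3.77), the last pair within their spread, so motors of division stood beside the general transport motor.

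Among light chains and cargo adaptors, 17 of 18 listed genes were tested. At P4 against E17.5, 5 rose and 1 fell, where 18.9% of all genes were higher and 17.9% lower. At A6w against P4, 12 rose and 1 fell (Fez1, an adaptor, by 0.30 on the log2 scale), where 27.3% of all genes were higher and 27.8% lower. Klc1, a neuronal kinesin light chain, rose by 0.41 ± 0.12 to P4 and by 0.39 ± 0.12 to A6w. Kif1bp, which binds kinesin motor domains and holds them off microtubules, averaged 183 CPM at A6w against 79.8 CPM at P4 (log2 change 1.20 ± 0.10). Klc4 was the light chain that fell to P4, at 13.7 CPM against 29.6 CPM at E17.5. Of 18 genes of cytoplasmic dynein, the motor of the return journey, 5 rose and 3 fell to P4, and 7 rose and 5 fell to A6w, which is near these shares of all genes. Dynlt3, a dynein light chain, rose at both steps (log2 changes 1.11 ± 0.10 and 1.31 ± 0.10).

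Of the 6 motors of cilia and Hedgehog signalling, Kif7 fell at both steps. Kif7 acts at the ciliary tip on the Gli factors of the Hedgehog pathway. It had 15.1 and 8.54 CPM in Mcph1KO and 12.1 and 12.3 CPM in WT libraries at E17.5, 6.87 and 7.66 CPM in Mcph1KO and 5.27 and 5.32 CPM in WT libraries at P4, and 2.03 to 2.29 CPM at A6w. The log2 changes were -0.95 ± 0.20 and -1.53 ± 0.21 (adjusted p = 0.00257 and 3.7e-05, edgeR).

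Kif24, which holds back cilium formation, had 2.59 to 2.95 CPM at A6w against 4.32 to 7.91 CPM at P4, a log2 change of -0.90 ± 0.24. Kif27, a relative of Kif7, had 2.76 to 3.25 CPM at A6w against 3.98 to 7.24 CPM at P4 (-0.88 ± 0.26). Kif6, a motor of motile cilia, had 0.512 to 1.29 CPM at A6w against 1.37 to 2.98 CPM at P4 (-1.35 ± 0.40). These 3 calls did not hold throughout: Kif24 and Kif27 were lost without both A6w libraries numbered 1, Kif27 also without the P4 WT library numbered 1, and Kif6 without that library or without the P4 Mcph1KO library numbered 1. Kif19a, which sets the length of motile cilia, had 2.36 to 3.82 CPM at P4 against 0.913 to 2.30 CPM at E17.5, a rise of 0.96 ± 0.32 (log2). Without both E17.5 libraries numbered 1 the change was 0.49, with no call (adjusted p = 0.320, edgeR), and the call was also lost without either of them, without the P4 Mcph1KO library numbered 1 or the P4 WT library numbered 2, with total counts as the only scaling, and when only the compared groups were fitted. Markers of ependymal and motile cilia summed to 16.7 and 25.0 CPM in the E17.5 libraries numbered 1 and 32.6 and 57.9 CPM in those numbered 2, and their part in Kif19a was not tested. Intraflagellar transport is the cargo system that Kif3a and Kif3b pull. Of its 17 listed genes, 1 rose and 1 fell to P4 (18.9% and 17.9% of all genes). To A6w 5 rose and 3 fell (27.3% and 27.8% of all genes). These counts lay near or below the shares over all genes.

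Kif26a and Kif26b are atypical kinesins that do not use ATP to move. Kif26a fell at both steps, with 206 and 151 CPM in Mcph1KO and 214 and 141 CPM in WT libraries at E17.5, 65.8 and 65.3 CPM in Mcph1KO and 60.0 and 36.2 CPM in WT libraries at P4, and 8.01 to 11.2 CPM at A6w. Kif26b followed a different course, with 55.7 and 72.8 CPM in Mcph1KO and 68.5 and 85.4 CPM in WT libraries at E17.5, and 102 and 108 CPM in Mcph1KO and 125 and 87.0 CPM in WT libraries at P4. By A6w the range was 12 to 18.5 CPM. Its log2 change was 0.58 ± 0.16 to P4 and -2.85 ± 0.17 to A6w, of which the first was lost without both E17.5 libraries numbered 1 (0.41), without either of them (0.49 and 0.50) or without the P4 WT library numbered 1 (0.44). Per kb, Kif26a exceeded Kif26b 3.504-fold to 7.86-fold at E17.5, and the ratio was 0.885 to 1.38 at P4 and 1.12 to 2.47 in adult libraries. Kif2a, a microtubule depolymerase that prunes axon branches, had 131 to 136 CPM at E17.5, 112 to 171 CPM at P4 and 87.3 to 102 CPM at A6w, a fall of 0.67 ± 0.13 from P4 (log2).

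No kinesin was called between the 2 adult stages. At A18w against A6w edgeR called 0 of 38 members, and 26 of all genes (0.135%), and DESeq2 also called 0 members. At an unadjusted p under 0.05 (edgeR) there were 3 of 38 members, beside 1706 of the 19199 genes tested. The members were Kif13b (log2 change 0.56 ± 0.17, adjusted p = 0.297), Kif27 (0.58 ± 0.27) and Kif26b (-0.37 ± 0.17). Kif13b had 32.3 and 53.3 CPM in Mcph1KO and 60.6 and 45.9 CPM in WT libraries at A18w, and 22.9 and 30.3 CPM in Mcph1KO and 42.0 and 36.9 CPM in WT libraries at A6w, so the stages overlapped. It was called when no filter on low counts was applied. The 12 mitotic motors together had 200 to 283 counts in each adult library, from 23 to 56 counts of Kif11 down to 2 to 6 of Kif2c and 1 to 7 of Kif18b, so changes in the rarest of them were not detectable at this depth. The 20 partner genes of mitosis had no call either.

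Against E17.5 WT cortex, mESC separated the classes. All 12 mitotic motors were higher in mESC, by 2.70-fold (Kif4) to 16.1-fold (Kif20b). Of the 17 transport motors 11 were lower, 4 were higher and 2 did not pass the test. In this fit of the 10 WT libraries, 39 members were tested, of which 19 were higher and 16 lower in mESC, beside 32.7% and 35.3% of the 19466 genes tested (68.0% called in all). The summed level of the mitotic motors was 1570 and 1985 CPM in mESC, against 343 and 186 CPM in E17.5 WT cortex, and that of the transport motors 904 and 755 CPM in mESC, against 4416 and 4077 CPM. Cell line and tissue were compared here, so culture and tissue cannot be told apart from cell type.

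Kif20b had 143 and 291 CPM in mESC, against 17.9 and 9.05 CPM in E17.5 WT cortex (log2 difference 4.01 ± 0.41, adjusted p = 1.0e-05, edgeR), and 3.41 without the mESC library numbered 2. Kif20a had 295 and 328 CPM in mESC, against 33.5 and 16.7 CPM in cortex. Kif11 had 207 and 300 CPM in mESC, against 77.5 and 42.0 CPM in cortex, 4.23-fold higher. Kif2c had 137 and 164 CPM in mESC, against 26.3 and 14.0 CPM in cortex, and Kif18a 50.4 and 99.3 CPM in mESC, against 12.6 and 7.04 CPM in cortex. The mESC libraries lay above the cortex libraries for each of the 12, as for 40.1% of all genes. Of the 20 partner genes of mitosis 19 were higher in mESC, beside 32.7% of all genes tested. The exception was Mki67, a marker of cycling cells, with 123 and 160 CPM in mESC against a cortex mean of 137 CPM (log2 difference 0.04 ± 0.32).

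The transport motors with the largest deficit in mESC were Kif21a, Kif5c, Kif21b and Kif1a. Kif21a had 3.18 and 4.15 CPM in mESC, against 176 and 139 CPM in E17.5 WT cortex, 42.9-fold lower. Kif5c had 18.9 and 19.1 CPM in mESC, against 675 and 679 CPM in cortex, 35.6-fold lower. Kif1a had 33.2 and 15.5 CPM in mESC, against 688 and 694 CPM in cortex (log2 difference -4.83 ± 0.38, and -5.49 without the mESC library numbered 1). Kif21b had 29.98 and 22.7 CPM in mESC, against 946 and 712 CPM in cortex. Kif3c was 21.98-fold lower in mESC, Kif5a 15.6-fold, Kif1b 11.9-fold, Kif3a 6.28-fold and Kif3b 2.999-fold. The general motors did not follow: Kif5b had 296 and 338 CPM in mESC, against 190 and 184 CPM in cortex, 1.69-fold higher. Kifc3 (157 and 62.8 CPM, against 28.3 and 32.5 CPM), Kif13b and Kif16b were also higher in mESC, and Kif1c and Kif13a did not pass the test.

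In the remaining classes, Kif26b was the lowest in mESC relative to cortex, with 1.37 and 0.692 CPM in mESC against 66.4 and 82.2 CPM in E17.5 WT cortex, 72.2-fold lower. Kif26a was 4.65-fold lower, so that the ratio of Kif26a to Kif26b per kb was 74.8 and 78.6 in mESC. Kif27 had 0.531 and 0.407 CPM in mESC, against 3.72 and 5.10 CPM in cortex, and Kif6 0.486 and 0.325 CPM in mESC, against 1.08 and 1.84 CPM. Kif24 had 18.2 and 15.1 CPM in mESC, against 7.66 and 4.56 CPM in cortex, and Kif7 26.4 and 17.45 CPM in mESC, against 11.7 and 11.8 CPM. Leaving out the E17.5 WT library numbered 2 ended the calls of Kif6, Kif7, Kif17 and Kif24, and that of Kif7 also ended without the E17.5 WT library numbered 1, without the mESC library numbered 1 or with total counts as the only scaling. Kif6 and Kif17 were also lost without the mESC library numbered 2, and Kif17 when the 4 compared libraries were fitted alone. Kif28 had 18 and 32 counts in mESC, against 0 and 1 counts in E17.5 WT cortex, and passed the filter only through mESC. Among 17 tested light chains and adaptors 13 were lower and 3 higher in mESC, and among 18 dynein genes 13 were lower and 3 higher. Of all genes tested, 35.3% were lower and 32.7% higher in mESC.

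The libraries labelled Mcph1KO did not differ detectably from WT in any kinesin. At E17.5, P4, A6w and A18w, averaged over the stages, and in the test of genotype by stage, edgeR called 0 of 38 members, and DESeq2 also called 0 each time. Of all genes, 0 were called at each stage and 10 (0.0521%) in the averaged comparison. The averaged log2 differences ran from -0.24 (Kif22) to 0.17 (Kif26a), with standard errors of 0.07 to 0.41. Changes of several times these errors could still have gone uncalled, as Mcph1 did at 0.44 ± 0.09 in this comparison. Groups without overlap were found for 4 of the 38 members at E17.5 (20.2% of all genes), 6 at P4 (29.6%), 11 at A6w (32.1%) and 8 at A18w (22.8%).

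The mitotic motors leaned different ways by stage, within their error. At E17.5 all 12 had a log2 difference above 0 (0.07 to 0.36, median 0.15), each with overlapping libraries, and Kif11 stood at 0.26 ± 0.35, at -0.17 without the Mcph1KO library numbered 1 and at -0.11 without the WT library numbered 2. Between the E17.5 libraries numbered 1 the mitotic sum was 399 CPM in Mcph1KO and 354 CPM in WT, and between those numbered 2 it was 230 CPM in Mcph1KO and 193 CPM in WT. Kif11 was likewise higher in Mcph1KO within each number (93.0 against 80.1 CPM, and 55.3 against 43.7 CPM), and with the number as a block within stages its difference was 0.28 (unadjusted p = 0.228, edgeR), still without a call. At P4 11 of the 12 were below 0 (median -0.25), and Kif20a had 4.89 and 5.59 CPM in Mcph1KO, against 8.02 and 6.73 CPM in WT libraries (log2 difference -0.49 ± 0.39, unadjusted p = 0.228, edgeR). At A18w Kif22 had 1.12 and 1.07 CPM in Mcph1KO, against 2.77 and 1.36 CPM in WT libraries (-0.91 ± 0.53). The groups did not overlap for 3 of the 12 at P4, all lower in Mcph1KO, beside 14.6% of all genes. The test of genotype by stage had an adjusted p of 1 for each member. Averaged over the stages the mitotic median was 0.02.

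In the separate stages 3 members reached an unadjusted p under 0.05 (edgeR), each with an adjusted p of 1. These were 0 of 38 members at E17.5 and at P4, 2 at A6w and 1 at A18w. Of the 19199 genes tested, 303 reached it at E17.5, 718 at P4, 763 at A6w and 326 at A18w. At A6w Kif1c had 96.3 and 92.1 CPM in Mcph1KO, against 150 and 119 CPM in WT libraries (log2 difference -0.52 ± 0.19, unadjusted p = 0.0186, edgeR). At A6w Kif13b had 22.9 and 30.3 CPM in Mcph1KO, against 42.0 and 36.9 CPM in WT libraries (-0.57 ± 0.24, unadjusted p = 0.0318, edgeR). Oligodendrocyte markers summed to 3993 and 4547 CPM in these Mcph1KO libraries, against 6882 and 3955 CPM in the WT libraries. Striatal markers had a median log2 difference of -1.46 at A6w. Of these 4, 3 were lower and 1 higher in Mcph1KO, each without overlap (32.1% of all genes in either direction). Hippocampal markers had a median of -1.33, with 3 of 4 below 0 and 1 above. The part of these 3 marker sets was not tested. At A18w Kif26a had 10.9 and 9.19 CPM in Mcph1KO, against 6.48 and 6.86 CPM in WT libraries (0.59 ± 0.26, unadjusted p = 0.0423, edgeR). At P4 Kif26a was also above WT in both libraries (0.45 ± 0.24), but at A6w it was below (-0.37 ± 0.26). At P4 Kifc2 stood at 0.47 ± 0.31, and at -0.041 without the WT library numbered 1, which held 43.5 CPM.

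The members of smallest p in the other classes were further from a call. At E17.5 they were Kif26b (-0.26 ± 0.23), Kif3c (-0.11 ± 0.14) and Kif24 (0.23 ± 0.32, and -0.091 without the WT library numbered 2). At P4 Kif7 stood at 0.46 ± 0.28, at A6w Kif26b at -0.36 ± 0.24 and Kif9, a motor of motile cilia, at 0.29 ± 0.44, and at A18w Kif13a at -0.37 ± 0.18 and Kif6 at -0.72 ± 0.56. Kif20a at A6w was at 0.39 ± 0.47, and at -0.19 without the Mcph1KO library numbered 2. Averaged over the stages, Kif13b was at -0.22 ± 0.12, Kif20b at -0.23 ± 0.20 and Kif7 at 0.13 ± 0.14 (log2, edgeR, adjusted p of 1 for each).

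**Figure D5:**
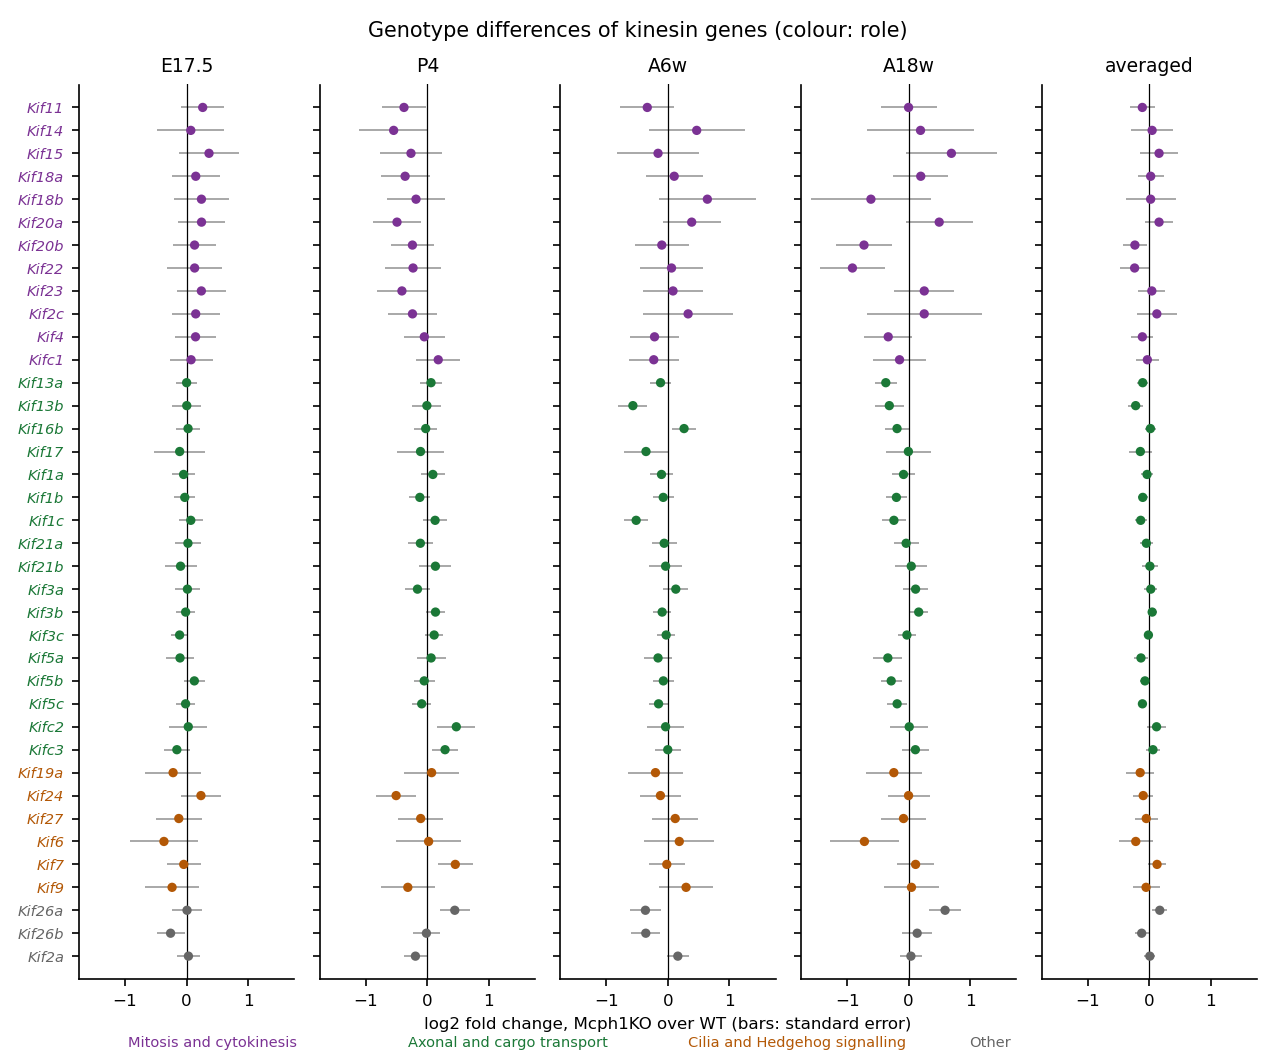
Log2 fold change of Mcph1KO over WT (horizontal axes) of the 38 tested kinesins (vertical axis, coloured by role) at each of the 4 cortex stages and averaged over them, with bars for 1 standard error. At E17.5 all 12 mitotic motors lie right of 0 within 0.07 to 0.36, and at P4 11 of 12 lie left of it. No gene was called in any panel.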

How the data were processed

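Bulk RNA was measured in 16 cortex libraries and 2 stem cell libraries. Per the submitters' processing notes, the authors used FastQC, Trimmomatic 0.39 and Salmon 1.4.0 on GRCm38.p6. The authors deposited estimated counts of genes as whole numbers, so none were rounded. Strand settings are not given in the sources used here. Not every overlap of a member with a neighbouring gene is reported here. Such estimates share out reads that match several genes, which affects near-identical copies.

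The main test was edgeR 4.0.16 (R 4.3.3) by quasi-likelihood, after filterByExpr with 10 as the count minimum and 15 as the total minimum, with TMM scaling and a mean for each group. Adjusted p-values are Benjamini-Hochberg over the whole fit, and 0.05 was the threshold of a call. A fit of the 16 cortex libraries (19199 genes, 8 residual degrees of freedom) served the stage and genotype comparisons. A fit of the 10 WT libraries (19466 genes, 5 residual degrees of freedom) served mESC against E17.5 WT. CPM are scaled within each fit, so E17.5 WT values differ slightly between them. Steps between stages average both genotype labels. Lengths are the union of GENCODE M21 exons. SE is the log2 change over the root of F. The fit code was also run on simulated counts, and that run is not evidence for the calls made in these data. Counts limit precision most in adult mitotic values, most of which rest on fewer than 50 counts.

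The members, classes and lists were chosen with earlier results of these data known. Values are given per library, or as ranges, for 14 fixed examples and, per comparison and class, up to 4 called members of largest change whose groups did not overlap and whose mean was at least 1 CPM in either group. For genotype, the member of smallest p in each class was named. Partner genes were named up to 4 per list by smallest adjusted p, and Cenpe, Cit, Anln, Mki67, Klc1, Klc4, Fez1 and Kifap3 after their values were seen. Alternatives were DESeq2 1.42.0, other scalings, filters and sets of libraries, the replicate number as a block, and each library left out in turn.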

Additional observations from a re-analysis of the deposited data

How the results depend on the processing

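Counts of kinesins called stayed within 1.5 times under every alternative run except that, without a filter on low counts, 1 kinesin (Kif13b, higher) was called at A18w against A6w. At P4 against E17.5 the 24 calls became 23 to 25 under other tools, filters, scalings or sets of groups, 21 to 25 with each library left out, and 19 (5 higher, 14 lower) without both E17.5 libraries numbered 1, an alternative chosen after seeing the data. At A6w against P4 the 31 calls became 31 or 32, 30 to 32 with each library left out, and 29 without both A6w libraries numbered 1 (also chosen after seeing the data). For mESC against E17.5 WT the 35 calls became 34 or 35, and 31 to 34 with each library left out. For genotype comparisons the count stayed 0. The labels do not say that a replicate number marks a shared litter or day, and the correlation of deviations between same-numbered libraries was 0.478 at E17.5, 0.209 at P4, 0.0829 at A6w and 0.295 at A18w. The number was therefore not used as a pairing throughout, although at E17.5 same-numbered libraries deviated together. With it as a replicate block 25 kinesins were called at P4 against E17.5 (Kif3a added), 32 at A6w against P4, 35 in mESC and 0 elsewhere, and with the block nested in stages, chosen after seeing the data, 0 for genotype. Total counts as the only scaling moved the median of all genes to -0.28 at A6w against P4 and to -0.36 in mESC (log2), and no called kinesin changed sign. Uncalled genotype differences that changed sign with a library left out were Kif11 at E17.5 (-0.17 without the Mcph1KO library numbered 1, -0.11 without the WT library numbered 2, range -0.17 to 0.77), Kif24 at E17.5 (-0.091 without the WT library numbered 2, range -0.091 to 0.65), Kifc2 at P4 (-0.041 without the WT library numbered 1, range -0.041 to 1.27) and Kif20a at A6w (-0.19 without the Mcph1KO library numbered 2, range -0.19 to 0.82), and the cause was not tested. Of 1239 values of named genes under alternatives, 1211 kept their direction and side of the threshold. Over all genes, calls depended more on settings: at A18w against A6w there were 26, with DESeq2 231 and without a filter 598, and in the averaged genotype comparison 10, 29 and 124. At P4 against E17.5 they fell to 2898 without both E17.5 libraries numbered 1, against 7062 in the full fit. Depth limits the adult mitotic motors most, with 1 to 7 counts of Kif18b per library.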
